A study of Homo sapiens with 21 samples.

Results

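The metallothionein genes MT1E, MT1F, MT1G, MT1M, MT1X and MT2A and the zinc regulators MTF1 and SLC30A1 were followed by gene symbol through the raw counts of human genes in A549 xenografts. Of these 8 genes, among 60651 in the count table, 5 were counted in every tumor and 3, MT1E, MT1G and MT1M, were at 0 counts in all 21 tumors. A549 is a human lung adenocarcinoma cell line, and the A549-Luc2 cells used here carry a luciferase gene. The cells were injected under the skin of the flank of female athymic nu/nu mice 6-8 weeks old, which lack most T cells and keep mouse stroma and vessels. All mice were dosed daily by oral gavage. The control group (7 tumors) received the solution of DMSO, ethanol, PEG400 and corn oil alone, and the other groups (7 tumors each) received the oxysterol derivatives Oxy186 or Oxy210 in it at 50 mg/kg. The labels do not say that tumors came from separate mice, so the p-values measure the spread between these samples.

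Metallothioneins are small proteins rich in cysteine that bind zinc and copper and buffer the free zinc of the cytosol. MTF1 is the transcription factor that senses zinc: in excess zinc it binds metal response elements in the promoters of metallothionein genes and of SLC30A1, the transporter that exports zinc across the plasma membrane. Metallothionein RNA is therefore widely read as a measure of zinc, copper or cadmium load, and glucocorticoids also raise MT2A in lung epithelial cells.

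The 6 metallothioneins lie in one cluster on chromosome 16, here given in GRCh38 coordinates with GENCODE 44 annotation. MT2A (ENSG00000125148) is at 16:56608584-56609497, MT1E at 16:56625475-56627112, MT1M at 16:56632659-56633981, MT1F (ENSG00000198417) at 16:56657731-56660698 and MT1X (ENSG00000187193) at 16:56682470-56684196, all on the plus strand. MT1G, at 16:56666730-56668065, is the only one of the 6 on the minus strand. Both zinc regulators are on the minus strand of chromosome 1, MTF1 (ENSG00000188786) at 1:37809574-37859592 and SLC30A1 (ENSG00000170385) at 1:211571568-211579161. MT1X shares 18.6% of its exon bases with the long noncoding RNA AC026461.1 on the same strand, which had 0 counts in all 21 tumors.

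The coding sequences show how alike the paralogs are. They are the coding parts of spliced GENCODE 44 transcripts, from start to stop codon, and are shown for the 3 metallothioneins that were counted and for MT1G, at 0 counts, which is the nearest to MT2A. Capitals mark bases that differ from MT2A or have no counterpart in it.
MT2A: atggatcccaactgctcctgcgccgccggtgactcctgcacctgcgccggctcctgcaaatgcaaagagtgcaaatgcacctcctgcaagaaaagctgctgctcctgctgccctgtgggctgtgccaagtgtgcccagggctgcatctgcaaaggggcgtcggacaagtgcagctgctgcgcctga
MT1X: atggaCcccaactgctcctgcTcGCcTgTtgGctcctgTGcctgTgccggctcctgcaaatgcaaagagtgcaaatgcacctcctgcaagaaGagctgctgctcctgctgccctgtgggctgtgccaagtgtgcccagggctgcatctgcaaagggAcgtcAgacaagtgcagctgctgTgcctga
MT1F: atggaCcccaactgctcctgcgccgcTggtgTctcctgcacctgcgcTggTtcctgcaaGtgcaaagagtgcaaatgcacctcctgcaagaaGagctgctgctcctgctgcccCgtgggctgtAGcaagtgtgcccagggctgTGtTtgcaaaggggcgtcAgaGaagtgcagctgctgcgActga
MT1G: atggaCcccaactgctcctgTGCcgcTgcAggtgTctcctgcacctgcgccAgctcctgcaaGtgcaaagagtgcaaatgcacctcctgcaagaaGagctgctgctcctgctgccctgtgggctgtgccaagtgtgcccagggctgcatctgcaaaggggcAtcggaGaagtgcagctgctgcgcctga
MT1X differed from MT2A at 14 of 186 positions, with an identity of 92.5%, and MT1F at 16 positions, with 91.4%. MT1G, which has 1 codon more, had an identity of 93.7% to MT2A, above that of either counted paralog. Each of the 6 sequences holds 20 cysteine codons, out of 61 codons before the stop in MT2A.

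This likeness matters because only uniquely mapped reads were counted. Windows of 100 bases along the spliced transcripts of MT1E, MT1F, MT1G, MT1M and MT2A were all unique among human transcripts, and 78.0% of those of MT1X were, with the rest shared only with AC026461.1. That gene starts at the same base and on the same strand as MT1X, so this sharing is overlap at 1 locus, not likeness of paralogs. How reads overlapping 2 genes were counted is not given in the sources used here. With windows of 50 bases, 88.9% were unique for MT2A, 93.9% for MT1F, 94.7% for MT1E, 85.4% for MT1M, 80.1% for MT1G and 49.0% for MT1X. The windows of MT1X that were not unique were shared with AC026461.1 as well as with paralogs. The level of MT1X relative to its paralogs is therefore uncertain. Read length is not given in the sources used here, and mouse transcripts were not searched.

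The promoters are shown because MTF1 acts through them. These are the 250 bases before the start of each gene in RefSeq (GRCh38.p14), 5′ to 3′ on the gene's own strand. Capitals mark matches on either strand to the core of the metal response element, TGCACNC or TGCGCNC, and no 2 matches overlapped.
MT2A, chr16:56608334-56608583, plus strand: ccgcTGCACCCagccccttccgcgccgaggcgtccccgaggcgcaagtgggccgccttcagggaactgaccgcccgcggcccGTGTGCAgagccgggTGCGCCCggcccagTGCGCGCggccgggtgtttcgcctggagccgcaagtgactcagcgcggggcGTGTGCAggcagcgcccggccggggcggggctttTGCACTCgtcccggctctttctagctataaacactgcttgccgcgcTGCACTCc
MT1X, chr16:56682220-56682469, plus strand: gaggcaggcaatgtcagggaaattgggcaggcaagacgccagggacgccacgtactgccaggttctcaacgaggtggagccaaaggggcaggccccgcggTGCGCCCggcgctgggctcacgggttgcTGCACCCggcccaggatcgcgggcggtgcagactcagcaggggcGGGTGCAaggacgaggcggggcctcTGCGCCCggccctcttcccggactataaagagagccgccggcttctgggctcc
SLC30A1, chr1:211579162-211579411, minus strand: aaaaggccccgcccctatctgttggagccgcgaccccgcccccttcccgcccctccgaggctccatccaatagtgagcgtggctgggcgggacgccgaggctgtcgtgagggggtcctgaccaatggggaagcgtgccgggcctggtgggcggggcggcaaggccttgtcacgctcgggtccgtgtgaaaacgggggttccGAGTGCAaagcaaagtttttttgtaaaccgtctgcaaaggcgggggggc
MT2A held 7 matches, MT1X held 4, SLC30A1 held 1 and the MTF1 promoter held 0. Of 35116 promoters of the same length, 24.8% held at least 1 match and 1.58% held 3 or more. Of the 8 genes, 4 had an entry; MT1E, MT1F, MT1G and MT1M had none. The matches are a description of these letters, not of binding.

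Total counts ranged from 13787493 to 17865119 per tumor, so that 3 counts, taken as the limit of detection, amounted to 0.17 to 0.22 CPM, where CPM is the count scaled by the normalized library size to a common total. This limit covers counting error only. The A549 markers fixed for the check (KRT8, KRT18, KRT19, EPCAM, CDH1, AKR1B10 and ALDH1A1) were counted in all 21 tumors, with KRT8 at 51847 to 127913 counts. Of 8 markers of other cells (PTPRC, CD68, PECAM1, VWF, COL1A1, COL3A1, ACTA2 and SFTPC), 3 passed the filter on low counts; PTPRC had at most 8 counts and COL1A1 256 to 1031. Their summed level was 34.6 to 72.2 CPM in the control group, 22.2 to 70.8 CPM in the Oxy186 group and 27.6 to 71.0 CPM in the Oxy210 group, and their part in the results was not tested. Oxy186-treated samples r1-r4 were analysed alone by the study after it saw the principal components of these libraries. Their slopes of log2 CPM on exon GC content were below those of every control tumor and of Oxy186 r5-r7. They overlapped with those of the Oxy210 group, where r5 was at -0.33. Per 10 percentage points of GC, the slope relative to the mean library was -0.51 to -0.18 in r1-r4, 0.079 to 0.49 in Oxy186 r5-r7, -0.15 to 0.40 in the control group and -0.33 to 0.26 in the Oxy210 group. Results of Oxy186 are therefore given for all 7 tumors and then for r1-r4.

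Of the 6 metallothioneins, counts came from MT2A and MT1X, the outermost along the chromosome, and from MT1F between them. Beyond these, only MT1A, at 2 to 18 counts, and the pseudogene MT1DP, at 2 to 16 counts, were seen in every tumor. Of 16 metallothionein genes and pseudogenes listed (the 6 above and 10 others), 5 were counted in every tumor and 8 were at 0 in all of them: MT1E, MT1G, MT1M, MT1H, MT4 and the unprocessed pseudogenes or related loci MT1L, MT1JP and MT1HL1. MT3, the form known from brain, reached at most 3 counts, and MT1B and MT1CP at most 1. Among all 60651 genes, 34.9% were at 0 in every tumor. For MT1M, a count of 3 in a library stood at up to 0.552 CPM per kilobase of transcript, and MT2A was at least 144-fold above that limit in each of the 21 libraries. The same lower bound was 148-fold for MT1G and 255-fold for MT1E, with the limit set per library. No comparison between groups could be made for these 3 genes.

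**Figure D1:**
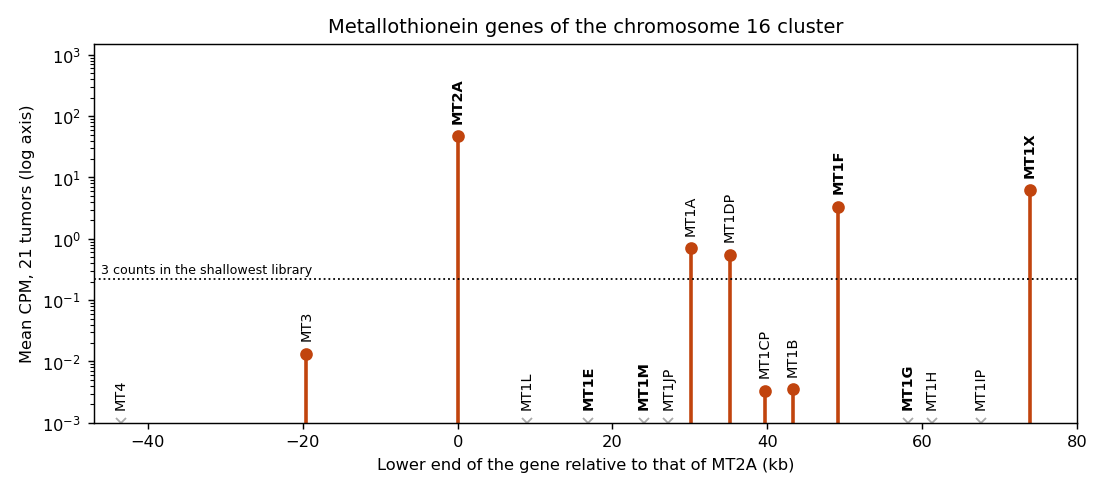
Mean CPM over the 21 tumors (log axis) of each metallothionein gene or pseudogene of the chromosome 16 cluster, placed by its distance in kb from MT2A; names in bold are the 6 genes followed here, and grey crosses at the bottom mark genes at 0 counts in all tumors. MT2A, MT1F and MT1X stand out above 3 CPM, with genes at 0 counts between them.

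MT2A carried most of the metallothionein counts. Over all 21 tumors its mean level was 47.3 ± 11.5 CPM (SD, n = 21), against 6.15 ± 2.95 CPM for MT1X and 3.34 ± 0.992 CPM for MT1F. In share of the summed CPM of the 3 genes, MT2A made up 83.0 ± 5.32% (SD, n = 21), MT1X 11.1 ± 5.08% and MT1F 5.96 ± 1.58%. The share of MT2A was lowest in Oxy186 r4, at 72.2%, and highest in Oxy210 r2, at 92.7%. The share of MT1X went the other way, from 2.62% in Oxy210 r2 to 21.3% in Oxy186 r4. In their mean MT2A share the control group (83.9 ± 5.37%, n = 7), the Oxy186 group (80.7 ± 4.62%, n = 7) and the Oxy210 group (84.2 ± 5.94%, n = 7) lay within 1 SD of each other.

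Levels of different genes were compared per length of their main spliced transcript, in CPM per kilobase. MT2A led with 118 ± 28.7 (SD, n = 21), followed by MT1X with 15.2 ± 7.3, SLC30A1 with 12.9 ± 2.89, MT1F with 7.85 ± 2.33 and MTF1 with 1.71 ± 0.257. MT1X and SLC30A1 did not differ beyond their spread, since MT1X alone ran from 3.69 to 27.1. The order of these genes depended on the length used. Per kilobase of all annotated exon bases, which include retained introns of the short metallothionein genes, SLC30A1 (12.9 ± 2.89) was above MT1X (3.56 ± 1.71), and MT1F (1.80 ± 0.536) and MTF1 (1.70 ± 0.256) could not be separated.

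**Figure D2:**
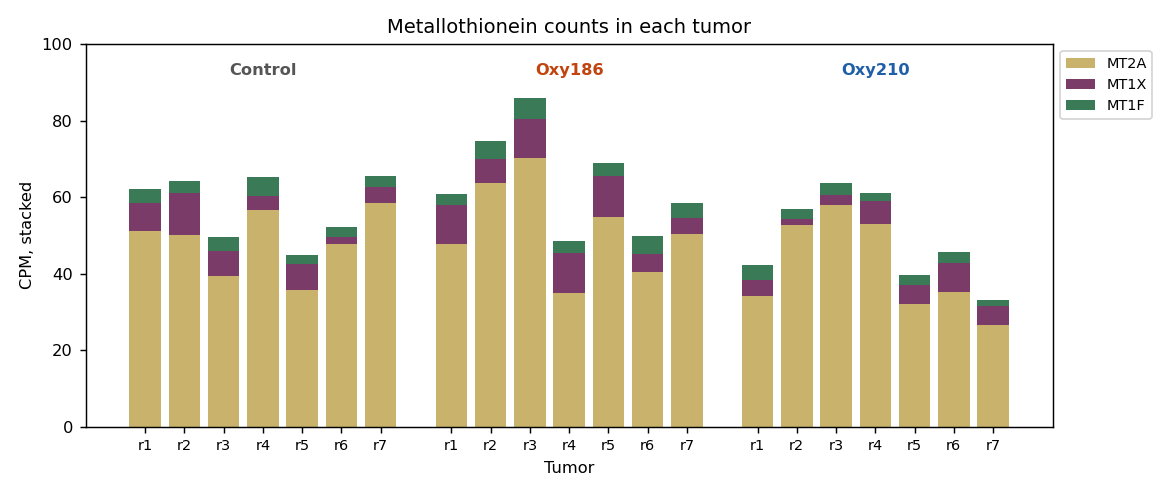
Stacked CPM of MT2A, MT1X and MT1F in each of the 21 tumors, by group and sample number. MT2A makes up 72.2% to 92.7% of every bar, and the highest bar is Oxy186 r3, at 85.9 CPM.

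The genes varied to different degrees from tumor to tumor. MT1X was the most variable of the 5, with a 7.35-fold range between its lowest and highest tumor. Its coefficient of variation was 48.0%, whereas counting alone would give 10.3% at its depth. Its SD of 0.782 on the log2 CPM scale was at percentile 92.8 among 16990 genes, whose median SD was 0.374. MTF1 was the steadiest, with a 1.81-fold range and an SD of 0.216, at percentile 13.5. MT2A (SD 0.367), MT1F (SD 0.407) and SLC30A1 (SD 0.338) lay near the median of all genes. For MT1F, the coefficient of variation was 29.7% against 14.1% from counting alone.

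Oxy186 was compared with the control group to ask whether these genes differed in the treated tumors. None of the 5 counted genes passed the test. MT2A had 35.6, 50.1 and 58.5 CPM (lowest, median and highest of 7) in the control group and 35.0, 50.3 and 70.2 CPM in the Oxy186 group. The groups overlapped, and only Oxy186 r2 and r3 were above every control tumor. The fitted log2 fold change was 0.08 ± 0.16 (SE), with adjusted p = 0.925 by the quasi-likelihood test of edgeR, adjusted over 16291 genes (Benjamini-Hochberg).

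MT1X had 1.88, 6.52 and 11.0 CPM in the control group and 4.18, 10.1 and 10.7 CPM in the Oxy186 group. The 4 highest treated tumors, Oxy186 r1, r3, r4 and r5, sat between 10.1 and 10.7 CPM, but Control r2 was higher than all of them. The log2 fold change of MT1X was 0.44 ± 0.33 (SE), a 1.36-fold difference with a 95% interval from 0.843-fold to 2.18-fold, and adjusted p = 0.862. MT1F had 2.38, 2.97 and 4.88 CPM in the control group and 2.72, 3.88 and 5.52 CPM in the Oxy186 group, with Oxy186 r3 the highest. Its log2 fold change was 0.26 ± 0.21 (SE, adjusted p = 0.862).

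The zinc regulators did not pass the test either. MTF1 had 9.42, 12.9 and 16.9 CPM in the control group and 11.9, 13.3 and 17.1 CPM in the Oxy186 group, with a log2 fold change of 0.04 ± 0.15 (SE, adjusted p = 0.961). SLC30A1 had 48.6, 63.3 and 100.2 CPM in the control group and 50.1, 74.2 and 100.2 CPM in the Oxy186 group. Its log2 fold change was 0.13 ± 0.19 (SE, adjusted p = 0.898). So 0 of 5 genes passed a fold change over 2 with adjusted p at or under 0.05, as did 0% of all 16291 genes. None of the 5 had an unadjusted p under 0.05, which 3.79% of all genes had. DESeq2 and limma voom also called 0 of the 5.

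**Figure D3:**
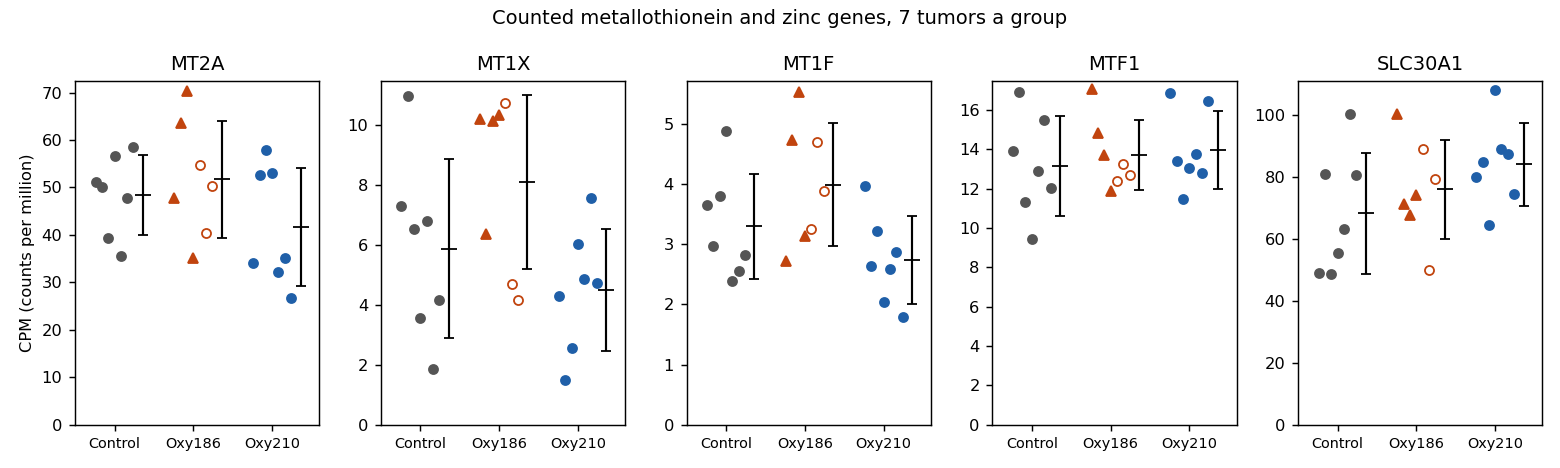
CPM of the 5 counted genes in each tumor, 7 per group, with the mean and SD beside the points; filled triangles are Oxy186-treated samples r1-r4 and open circles r5-r7. The groups overlap for every gene, and MT1X spans the widest range, from 1.49 to 11.0 CPM.

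Oxy210 at the same dose was compared with the same control tumors. Again 0 of 5 genes were called, with 0% of all 16396 genes called, and DESeq2 and limma voom called 0 of the 5. MT2A had 26.7, 35.2 and 58.0 CPM in the Oxy210 group, with 4 of 7 tumors below the lowest control tumor. These were r1, r5, r6 and r7, at 26.7 to 35.2 CPM, while r2, r3 and r4 were at 52.7 to 58.0 CPM, within the range of the control group. The log2 fold change of MT2A was -0.20 ± 0.17 (SE, adjusted p = 0.567).

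MT1X had 1.49, 4.73 and 7.55 CPM in the Oxy210 group, and 6 of 7 tumors lay below the control median. Its log2 fold change was -0.35 ± 0.35 (SE, adjusted p = 0.629). MT1F had 1.78, 2.64 and 3.96 CPM, with a log2 fold change of -0.25 ± 0.21 (SE, adjusted p = 0.567). All 3 metallothionein values were thus below 0 without passing the test, where the median of all genes was 0.0086.

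SLC30A1 was the nearest to a difference in this comparison. It had 64.6, 84.8 and 108 CPM in the Oxy210 group, and 7 of 7 tumors lay above the control median of 63.3 CPM. With only these 2 groups normalized together, 6 of 7 did. The log2 fold change was 0.32 ± 0.17 (SE), or 1.25-fold with a 95% interval from 0.979 to 1.59, and adjusted p = 0.389. An exact permutation test of its mean log2 CPM over the samples gave two-sided p = 0.0851, where 0.000583 is the smallest p that 7 against 7 allows. MTF1 had 11.5, 13.4 and 16.8 CPM and a log2 fold change of 0.11 ± 0.14 (SE, adjusted p = 0.721). None of the 5 had an unadjusted p under 0.05, which 13.8% of all genes had.

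Oxy186 and Oxy210, as related oxysterols given at 1 dose and by 1 route, form the only pair of compounds compared. The metallothioneins were higher in the Oxy186 group than in the Oxy210 group, but none passed the adjustment over all genes. MT1X had a median of 10.1 CPM with Oxy186 and 4.73 CPM with Oxy210. In the Oxy186 group 4 tumors, at 10.1 to 10.7 CPM, were above every Oxy210 tumor, and the other 3 overlapped with them. The log2 fold change was 0.83 ± 0.31 (SE), or 1.78-fold with a 95% interval from 1.12 to 2.81, with an unadjusted p = 0.0171 and adjusted p = 1 by edgeR's quasi-likelihood test. The exact permutation test gave two-sided p = 0.0309.

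MT1F, with medians of 3.88 and 2.64 CPM, was higher than the Oxy210 median in 7 of 7 Oxy186 tumors, and 3 of these were above every Oxy210 tumor. Its log2 fold change was 0.54 ± 0.22 (SE), or 1.45-fold with a 95% interval from 1.05 to 1.99, with an unadjusted p = 0.0248 and adjusted p = 1 by the same test. The exact permutation test gave two-sided p = 0.0227. For MT2A, medians were 50.3 and 35.2 CPM, and the log2 fold change was 0.31 ± 0.19 (SE, adjusted p = 1). SLC30A1 went the other way, at -0.16 ± 0.15 (SE, adjusted p = 1), with a 95% interval of 0.722-fold to 1.11-fold. MTF1, at -0.04 ± 0.13 (SE, adjusted p = 1), had an interval of 0.801-fold to 1.18-fold.

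In counts, 0 of 5 genes were called between the oxysterols, as were 0% of all 16361 genes. With an unadjusted p under 0.05, 2 of 5 were higher with Oxy186 and 0 were lower, against 3.14% of all genes higher and 0.917% lower, 4.06% in all. MT1X and MT1F also had the lowest depth of the 5. The difference rested on Oxy210 being below and Oxy186 above the control group, neither of which passed its own test. Because both oxysterol groups were set against 1 control group, those values are not independent.

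**Figure D4:**
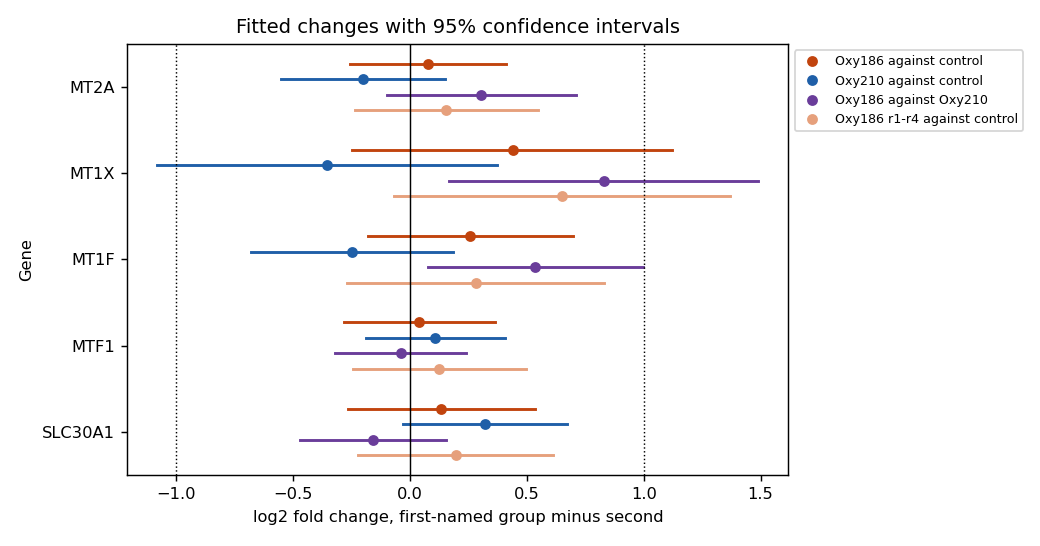
Fitted log2 fold changes of the 5 counted genes in 4 comparisons, with 95% confidence intervals; dotted lines mark a 2-fold difference. Only MT1X and MT1F between Oxy186 and Oxy210 have intervals above 0, and neither passes adjustment over all genes.

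Oxy186-treated samples r1-r4 were then set against the control group, the tumors that the study compared. The study tested them with limma voom, and its counts of called genes differ from those given here by edgeR. They were chosen on these data, so the values are a description beside those of all 7 tumors and no independent evidence. In this comparison 8.34% of 16852 genes were called (8.13% lower and 0.214% higher), and 19.7% passed the adjusted p alone, without the fold threshold. Of the 5 counted metallothionein and zinc genes, 0 passed either rule. MT1X had 6.35 to 10.3 CPM in r1-r4, with 3 of 4 tumors above the control median, and a log2 fold change of 0.65 ± 0.34 (SE, adjusted p = 0.183). MT1F was at 0.28 ± 0.26 (SE, adjusted p = 0.466), MT2A at 0.16 ± 0.18 (adjusted p = 0.578), MTF1 at 0.13 ± 0.18 (adjusted p = 0.641) and SLC30A1 at 0.20 ± 0.20 (adjusted p = 0.505), each with its SE. None had an unadjusted p under 0.05, which 34.7% of all genes had.

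Removal of each library's GC trend moved several of these values. The exons of MT1F are 57.1% GC, those of MT2A 54.2%, MT1X 53.7%, MTF1 46.6% and SLC30A1 40.7%, where the median gene tested was at 47.6%. With GC offsets, r1-r4 gave log2 fold changes of 0.78 for MT1F (adjusted p = 0.0843), 0.91 for MT1X (adjusted p = 0.145) and 0.42 for MT2A (adjusted p = 0.248). SLC30A1 turned to -0.02 (adjusted p = 0.972). Over all 7 Oxy186 tumors, the same offsets gave 0.53 for MT1F (adjusted p = 0.844), 0.62 for MT1X (adjusted p = 0.87), 0.23 for MT2A (adjusted p = 0.904) and 0.07 for SLC30A1 (adjusted p = 0.98). With Oxy210 they gave -0.11 for MT1F (adjusted p = 0.827), -0.24 for MT1X (adjusted p = 0.798) and -0.13 for MT2A (adjusted p = 0.74). SLC30A1 with Oxy210 moved from 0.32 to 0.22 (adjusted p = 0.445). Between the oxysterols, the offsets gave 0.64 for MT1F (adjusted p = 0.51) and 0.86 for MT1X (adjusted p = 0.578). MT2A was there at 0.36 (adjusted p = 0.654) and SLC30A1 at -0.16 (adjusted p = 0.76). No value passed the test with or without the offsets. The unadjusted p of edgeR's quasi-likelihood test with offsets was nevertheless under 0.05 for some members. It was 0.00545 for MT1F, 0.0154 for MT1X and 0.0422 for MT2A in r1-r4, and 0.0289 for MT1F over all 7 Oxy186 tumors. Between the oxysterols it was 0.0126 for MT1F and 0.0254 for MT1X. The share of all genes under 0.05 with offsets is not given here. The r1-r4 values without offsets rested in part on single tumors, since without Oxy186 r3 MT2A was at 0.0088 and MT1F at 0.093, and without Oxy186 r4 MT2A was at 0.36, none of them passing the test.

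The members were also compared with each other across the 21 tumors, on the log2 CPM scale, in 10 relations. MT1F and SLC30A1 were opposed, with Pearson r = -0.562 (permutation p = 0.0085, Benjamini-Hochberg adjusted p = 0.085) and Spearman rho = -0.578 (permutation p = 0.00718, adjusted p = 0.0718). Without the 2 tumors farthest in MT1F, r was -0.663. Within groups r was -0.676 in the control group, -0.739 in the Oxy186 group and -0.34 in the Oxy210 group, and after removal of the GC trend it was -0.402. MT1F and SLC30A1 also stand at the high and the low end of the 5 in exon GC content.

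MT1F and MT2A had r = 0.467 (permutation p = 0.0331, adjusted p = 0.165) and rho = 0.413 (permutation p = 0.0644, adjusted p = 0.318). That relation rested in part on 2 tumors, since r was 0.163 without the pair farthest in MT1F. Within groups r was 0.377 in the control group, 0.537 in the Oxy186 group and 0.177 in the Oxy210 group. After removal of the GC trend it was 0.539. For MT1X and MT2A, r was -0.0491 (permutation p = 0.833, adjusted p = 0.958), rho was -0.113 (permutation p = 0.623) and r without the 2 farthest tumors was 0.0487. For MT1X and MT1F, r was 0.135 (permutation p = 0.56, adjusted p = 0.8), rho was 0.0649 (permutation p = 0.78) and r without the 2 farthest tumors was 0.00733. After removal of the GC trend, r of MT1X was 0.388 with MT1F and 0.176 with MT2A. With each group centred on its mean, the 2 values were -0.165 and -0.274. MT1X thus showed no relation to its paralogs that passed the test. MTF1 and SLC30A1 had r = 0.418 (permutation p = 0.0577, adjusted p = 0.192) and rho = 0.373 (permutation p = 0.0953), with r = 0.242 without the 2 farthest tumors. The zinc sensor and its target MT2A had r = -0.237 (permutation p = 0.301, adjusted p = 0.602) and rho = -0.248 (permutation p = 0.277), with r = -0.0933 without the 2 farthest tumors. The other 4 relations had r between -0.289 and 0.143, and none of the 10 passed the adjustment.

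**Figure D5:**
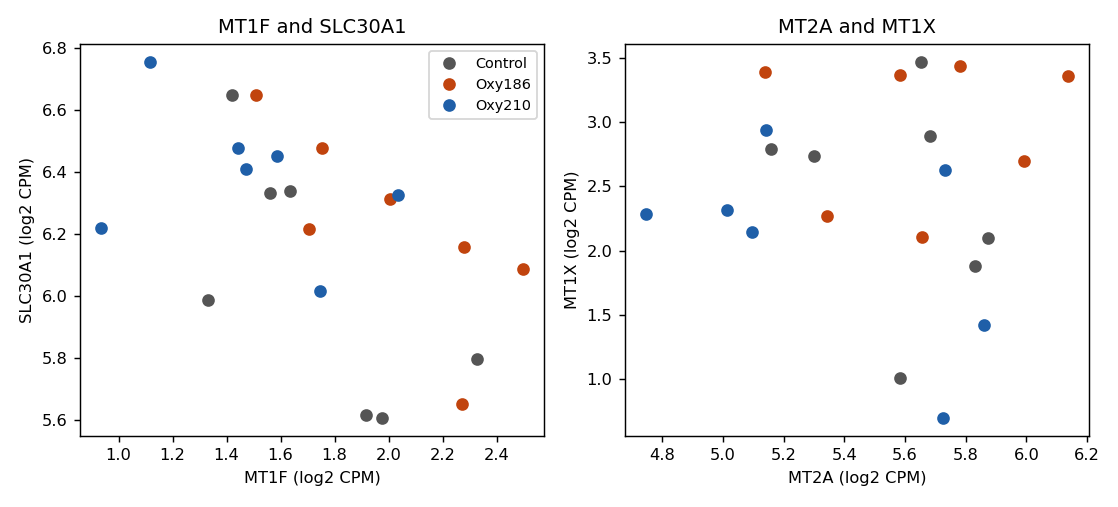
Log2 CPM of SLC30A1 against MT1F (left) and of MT1X against MT2A (right), 1 point per tumor, coloured by group. The left panel slopes down (r = -0.562 over 21 tumors), and the right panel shows no slope (r = -0.0491).

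The genes most alike to the family were taken by Pearson r with the mean log2 CPM of MT2A, MT1X and MT1F over the 21 tumors, among 16984 genes. They were C4orf3 (r = 0.887), LGALS3, which encodes galectin-3 (0.784), RPL30, a ribosomal protein of the large subunit (0.779), TMEM59 (0.77) and GLRX, the thiol enzyme glutaredoxin (0.767). The mean follows MT1X more than the others, and C4orf3 had r = 0.76 with MT1X but 0.39 with MT2A. These values share libraries, depth and base composition, and are a description.

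The rest of the zinc system showed few differences over all 7 tumors a group. Of 9 further SLC30 genes, from a family that mostly moves zinc out of the cytosol or into vesicles, 5 were tested and none was called in any comparison. With Oxy186 the lowest p values belonged to SLC30A4 (log2 fold change -0.18) and SLC30A6 (0.10), with adjusted p = 0.864 and 0.901. With Oxy210 they belonged to SLC30A9 (0.14) and SLC30A6 (0.09), with adjusted p = 0.569 and 0.691, and between the oxysterols to SLC30A4 (-0.06) and SLC30A7 (0.05), both with adjusted p = 1. In r1-r4, SLC30A6 was at 0.32 (adjusted p = 0.0659) and SLC30A9 at 0.26 (adjusted p = 0.139). With GC offsets the 2 were at 0.07 and -0.01 (adjusted p = 0.753 and 0.976).

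Of the 14 SLC39 genes, which bring zinc into the cytosol, 12 were tested against the control group and none was called over all 7 tumors of either oxysterol. SLC39A13, a transporter of the secretory pathway, had log2 fold changes of -0.74 with Oxy186 (adjusted p = 0.862) and -0.50 with Oxy210 (adjusted p = 0.305). SLC39A14, a plasma membrane importer of zinc and iron, was at -0.26 with Oxy186 (adjusted p = 0.862), and SLC39A10 was at 0.40 with Oxy210 (adjusted p = 0.333). Between the oxysterols, SLC39A7, which releases zinc from the endoplasmic reticulum, was at 0.27 and SLC39A10 at -0.18, both with adjusted p = 1. The median log2 fold change over the tested SLC39 genes was -0.13 with Oxy186 and -0.27 with Oxy210, against -0.0067 and 0.0086 over all genes.

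In r1-r4, by contrast with the metallothioneins, 4 of 12 SLC39 genes were called lower and 0 higher, where 8.13% of all genes were called lower. SLC39A3 had 46 to 79 counts in r1-r4 and 142 to 342 in the control group, with a log2 fold change of -1.93 ± 0.27 (SE, adjusted p = 0.000754). SLC39A13 was at -1.57 ± 0.29 (SE, adjusted p = 0.00208), SLC39A5 at -1.72 ± 0.37 (SE, adjusted p = 0.00541) and SLC39A1 at -2.28 ± 0.52 (SE, adjusted p = 0.00717). SLC39A1 had only 1 to 6 counts in r1-r4 and 9 to 22 in the control group. It shares 60.8% of its exon bases with AL358472.7 on the same strand, so its counts may be incomplete. In Oxy186 r5-r7 the counts of SLC39A3 were 125 to 319. All 4 genes are rich in GC, at 58.0% to 62.1% of their exon bases. That range also held an SLC39 gene that was not called, at 60.7%. With GC offsets only SLC39A3 was called, at -1.24 (adjusted p = 0.00252), while SLC39A13 was at -0.64 (adjusted p = 0.0371), SLC39A5 at -0.95 (adjusted p = 0.104) and SLC39A1 at -1.70 (adjusted p = 0.0679). With the replicate block and GC offsets together, 0 of 12 were called.

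Copper handling genes were listed because metallothioneins also bind copper, and 10 of 12 were tested. None was called in any comparison. COMMD1, a regulator of copper export, was at 0.36 with Oxy186 (adjusted p = 0.862), at 0.60 between Oxy186 and Oxy210 (adjusted p = 1) and at 0.60 in r1-r4 (adjusted p = 0.0665), all as log2 fold changes. COX17, a copper chaperone of mitochondria, was at 0.17 with Oxy186 (adjusted p = 0.862) and 0.30 in r1-r4 (adjusted p = 0.225). With GC offsets, r1-r4 gave 0.72 for COMMD1 (adjusted p = 0.0645) and 0.18 for COX17 (adjusted p = 0.573). ATOX1, the copper chaperone of the cytosol, was at -0.25 with Oxy210 (adjusted p = 0.43) and 0.41 between the oxysterols (adjusted p = 1). CP, encoding ceruloplasmin, was at 0.42 with Oxy210 (adjusted p = 0.382).

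Of 10 glucocorticoid response genes, 8 were tested, and none was called over all 7 tumors a group. NR3C1, the glucocorticoid receptor, was at 0.33 with Oxy186 (adjusted p = 0.862) and 0.30 with Oxy210 (adjusted p = 0.305), and FKBP5, a receptor target, at 0.31 and 0.33 (adjusted p = 0.862 and 0.382). Between the oxysterols, PER1 was at 0.44 and KLF9 at 0.26, both with adjusted p = 1. In r1-r4 only PER1, a target of the receptor and part of the circadian clock, was called, at -1.04 ± 0.28 (SE, adjusted p = 0.0183). PER1 was no longer called without Oxy186 r1, r2 or r3 or without Control r1 or r3, which left 0 of the 8 called. It was at -0.07 with GC offsets (adjusted p = 0.933). NR3C1 in r1-r4 was at 0.52 (adjusted p = 0.0129) without offsets, below the fold threshold, and at 0.33 (adjusted p = 0.0992) with them.

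The genes on either side of the cluster gave no called difference. Of 12 neighbours, 8 were tested and none was called in the 4 comparisons. HERPUD1, a gene of the endoplasmic reticulum stress response, was at -0.47 with Oxy210 (adjusted p = 0.27) and 0.23 between the oxysterols, where NUP93 was at 0.14 (both adjusted p = 1). RSPRY1 was at 0.25 with Oxy186 (adjusted p = 0.862) and 0.53 in r1-r4 (adjusted p = 0.00395), or 0.32 there with GC offsets (adjusted p = 0.0495). MT1A, the only tested gene of the other metallothioneins, was at -0.27 with Oxy186 (adjusted p = 0.878), -0.40 with Oxy210 (adjusted p = 0.609), 0.16 between the oxysterols (adjusted p = 1) and -0.46 in r1-r4 (adjusted p = 0.447).

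Among the epithelial markers of A549, none of 7 tested was called. KRT19 was at -0.24 with Oxy186 (adjusted p = 0.864), -0.78 with Oxy210 (adjusted p = 0.246) and 0.56 between the oxysterols (adjusted p = 1), and ALDH1A1 at 0.28 with Oxy186 (adjusted p = 0.862). KRT18 was at -0.26 with Oxy210 (adjusted p = 0.415) and 0.45 between the oxysterols (adjusted p = 1). In r1-r4, KRT8 was at -0.44 (adjusted p = 0.148) and EPCAM at 0.36 (adjusted p = 0.193). With GC offsets KRT8 was at -0.02 (adjusted p = 0.968) and EPCAM at 0.32 (adjusted p = 0.36) in r1-r4, and KRT19 turned to 0.20 with Oxy186 (adjusted p = 0.942). Between the oxysterols, KRT18 and KRT19 were thus above 0 like MT1X and MT1F, and none of these passed the test. All 7 of the 7 epithelial markers were above 0 there, with a median log2 fold change of 0.25. Their part in the values of MT1X and MT1F was not tested. Of the markers of other cells, COL1A1, a collagen of fibroblasts, was at -0.28 with Oxy186 (adjusted p = 0.862), 0.13 with Oxy210 (adjusted p = 0.78), -0.38 between the oxysterols (adjusted p = 1) and -0.52 in r1-r4 (adjusted p = 0.126). With GC offsets COL1A1 turned to 0.04 with Oxy186 (adjusted p = 0.993) and to 0.14 in r1-r4 (adjusted p = 0.824). ACTA2, an actin of smooth muscle, was at -0.17 with Oxy186, 0.25 with Oxy210, -0.38 between the oxysterols and -0.23 in r1-r4 without offsets (adjusted p = 0.909, 0.64, 1 and 0.624). The stroma is of the mouse and only human genes were counted, so the markers of other cells do not measure numbers of stromal cells. Whether their counts came from A549 cells or from mouse reads assigned to human genes was not tested.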

How the data were processed

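RNA from 21 A549-Luc2 xenografts was sequenced. Per the labels and methods, the authors trimmed reads with Trimmomatic 0.39, aligned them with STAR 2.7.6a to combined human (GRCh38.p13) and mouse (GRCm39) genomes and counted uniquely mapped reads of human genes with featureCounts of Subread 2.0.1. These deposited raw counts were used throughout. The deposited log2 CPM values, which the authors made with edgeR for the control group and Oxy186 r1-r4, served as a check (largest difference 4.97e-14 from values recomputed here). The strand setting is not given in the sources used here.

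Counts were tested in R 4.3.3 with edgeR 4.0.16 (filterByExpr, TMM, quasi-likelihood test, p-values adjusted over all tested genes by Benjamini-Hochberg). A call needed a fold change over 2 and adjusted p at or under 0.05. Alternatives used limma 3.58.1 (voom), DESeq2 1.42.0, other scalings and filters, all 21 libraries in 1 fit, GC offsets (a spline with 4 degrees of freedom per library over genes of log2 CPM 1 or more), the replicate block and each library left out. Log2 CPM used a prior count of 2. Correlations used 100000 permutations. The code was tested on simulated data. Total counts were 13787493 to 17865119, so counting limits MT1F (29 to 78 counts) most.

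Genes, lists and tests were chosen with earlier results of these data known. Named were all 8 genes and, of each other list and comparison, every called gene or else the 2 with the lowest p, plus the 5 genes most alike. A gene that this rule names is not reported here. Positions and transcripts came from GENCODE 44, and promoters from RefSeq. Analysis of annotation used python 3.11.15.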

Additional observations from a re-analysis of the deposited data

How the results depend on the processing

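Of 480 recomputed values, 476 kept their direction and their side of the threshold, and 4 turned direction, none of them past the test. MTF1 with Oxy186 fell from a log2 fold change of 0.04 to -0.0297 without Control r4 and -0.00549 without Oxy186 r1, over a range of -0.0297 to 0.139 when each tumor was left out. MTF1 between the oxysterols moved to 0.0038 without Oxy210 r7, over a range of -0.128 to 0.0038. SLC30A1 in r1-r4 moved to -0.0186 with GC offsets. The cause was not tested. MT2A with Oxy186 came to 0.000492 without Oxy186 r3, so the small value of 0.08 rested on that tumor. Leaving out single tumors, MT1X between the oxysterols ranged from 0.677 to 1.02 and MT1F from 0.454 to 0.621, and 0 of 5 genes were called each time. The lowest adjusted p of any of these values was 0.0646, for MT1X in r1-r4. Counts of called genes stayed at 0 of 5 under limma voom, DESeq2, each scaling, each filter, 1 fit of all 21 libraries and adjusted p alone. Among the listed genes, the count of 4 called SLC39 genes in r1-r4 was 3 with at least 10 counts in every library, 1 with GC offsets and 4 whichever tumor was left out. PER1 in r1-r4 was not called with library size alone, with the replicate block, with GC offsets or without Oxy186 r1, r2 or r3 or Control r1 or r3. With the counts of the 3 metallothioneins summed to 1 feature, the log2 fold change was 0.13 with Oxy186, -0.22 with Oxy210, 0.38 between the oxysterols and 0.22 in r1-r4.

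The labels number samples 1 to 7 in each group. Residuals of samples with 1 number correlated at -0.4 to 0.33, and 0, 3 and 1 of 7 pairs exceeded 0.1 in the 3 pairs of groups, so the numbers were not taken to pair the tumors. With the replicate block 0 of 5 genes were called in every comparison, MT1X between the oxysterols was at 0.889 and MT1F at 0.539, and in r1-r4 the 2 were at 0.457 and 0.0366.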

Other observations

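None of the 15 groups of values (5 counted genes in 3 groups of 7 tumors) held a tumor set apart from the others by Dixon's gap test, where chance alone would flag 0.75.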
